A study of Homo sapiens with 9 samples.

Results

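The 3 naive libraries of OVCAR4 cells, out of 9 RNA-seq libraries in the series, were described by the level of each gene, without a comparison between groups. They were chosen by their labels alone. OVCAR4 is a widely grown line derived from a human high-grade serous carcinoma of the ovary, and the study asked how such cells become resistant to platinum (Pt) and what the arginine methyltransferase PRMT5 contributes. The naive cells carried the WT genotype label, had not been made resistant and received DMSO, the solvent. The 6 libraries not described here were from the Pt-resistant derivative of the line, with DMSO or with the PRMT5 inhibitor EPZ015666 at 5 uM. Per the study's methods the agents were given for 5 days to cells in wells of a plate, so the 3 naive replicates are wells of 1 line, and the spread between them may be technical. They say nothing of how other serous lines or tumors differ from OVCAR4.

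High-grade serous carcinoma is thought to arise mostly from the secretory epithelium of the fallopian tube. That epithelium is held in its identity by factors of the Müllerian duct, among them PAX8 and SOX17. Many of its tumors lose homologous recombination, the accurate repair of broken DNA, which makes them sensitive to Pt drugs. A transcriptome shows which lineage factors, surface receptors and repair genes a cell transcribes, and which it leaves silent.

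The totals were 16967143, 14320929 and 15831203 counts in replicates 1 to 3. Levels within a gene are given as CPM, the count scaled to a library total of 1e6, as mean ± SD over the 3 wells. Levels of different genes are compared as CPM per kilobase of exon, since a long mRNA yields more fragments. The length is that of all annotated exons of a gene together, which can exceed the length of its mRNA. Orders between genes depend on that choice. A gene was called detected at 1 CPM or more in each of the 3 libraries. This held for 12571 of 61487 genes (20.4%) and for 11594 of 19854 protein-coding genes (58.4%). No count in any naive library was found for 36150 genes, of which 4291 were protein-coding (21.6% of those). With 47119275 naive counts in all, a gene at 0 could still have had up to 3 counts, or 0.0637 CPM. These limits cover counting error only. Where under 70% of a gene's 50-base stretches are found in no other gene, its level is given as uncertain, since STAR leaves out reads shared between genes.

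The starts of 6 genes are shown because they set the 3 states of the naive transcriptome side by side, an abundant gene, lineage factors that were read and factors that were not. Each is the RefSeq window from 250 bases before to 50 bases after the gene's start on GRCh38.p14, 5′ to 3′ on the gene's strand, with the CG dinucleotides (CpG) in capitals. RefSeq gives 1 start per gene here, which need not be the start used in these cells.
GSTP1 (chr11:67583562-67583861, + strand): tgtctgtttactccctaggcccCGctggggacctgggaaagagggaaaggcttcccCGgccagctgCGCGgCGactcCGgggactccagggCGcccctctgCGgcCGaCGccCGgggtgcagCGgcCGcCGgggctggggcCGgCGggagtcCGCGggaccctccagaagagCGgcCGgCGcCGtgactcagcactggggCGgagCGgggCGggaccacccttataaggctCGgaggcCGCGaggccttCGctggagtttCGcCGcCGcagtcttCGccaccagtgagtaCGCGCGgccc
MECOM (chr3:169663663-169663962, - strand): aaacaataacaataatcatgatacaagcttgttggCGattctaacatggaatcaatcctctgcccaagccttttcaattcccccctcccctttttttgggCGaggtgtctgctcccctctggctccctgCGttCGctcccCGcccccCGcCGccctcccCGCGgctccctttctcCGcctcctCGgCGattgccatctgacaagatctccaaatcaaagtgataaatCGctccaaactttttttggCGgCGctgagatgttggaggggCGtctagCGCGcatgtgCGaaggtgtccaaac
PAX8 (chr2:113278872-113279171, - strand): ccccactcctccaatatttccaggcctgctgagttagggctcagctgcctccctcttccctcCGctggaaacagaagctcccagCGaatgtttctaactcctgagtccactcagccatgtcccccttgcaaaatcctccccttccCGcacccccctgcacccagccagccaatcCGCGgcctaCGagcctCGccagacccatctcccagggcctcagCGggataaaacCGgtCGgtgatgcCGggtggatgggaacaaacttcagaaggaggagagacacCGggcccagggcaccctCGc
WT1 (chr11:32435490-32435789, - strand): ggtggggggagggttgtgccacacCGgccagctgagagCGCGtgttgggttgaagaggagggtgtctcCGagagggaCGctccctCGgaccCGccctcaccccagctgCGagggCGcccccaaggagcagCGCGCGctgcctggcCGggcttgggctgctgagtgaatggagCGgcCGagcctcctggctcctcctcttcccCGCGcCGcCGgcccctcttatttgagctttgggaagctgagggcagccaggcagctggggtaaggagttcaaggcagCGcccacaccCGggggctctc
PGR (chr11:101129028-101129327, - strand): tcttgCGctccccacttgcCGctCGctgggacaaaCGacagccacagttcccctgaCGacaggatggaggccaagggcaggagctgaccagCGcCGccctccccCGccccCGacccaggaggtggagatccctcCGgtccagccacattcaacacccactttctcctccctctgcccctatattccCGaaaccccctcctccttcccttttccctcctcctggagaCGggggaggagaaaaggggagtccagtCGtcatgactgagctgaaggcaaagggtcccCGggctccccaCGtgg
KRT20 (chr17:40885193-40885492, - strand): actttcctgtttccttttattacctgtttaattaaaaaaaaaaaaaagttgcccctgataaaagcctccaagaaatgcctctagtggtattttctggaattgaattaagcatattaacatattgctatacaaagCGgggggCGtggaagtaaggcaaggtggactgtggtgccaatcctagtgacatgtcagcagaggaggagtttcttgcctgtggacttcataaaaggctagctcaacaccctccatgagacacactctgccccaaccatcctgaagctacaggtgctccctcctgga

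GSTP1, a glutathione transferase, was among the most abundant mRNAs at 2352 ± 150 CPM, and its window holds 36 CpG. The lineage factors MECOM, a zinc finger factor, and PAX8, a paired-box factor, were read at 226 ± 19 CPM and 136 ± 12 CPM and hold 19 and 13 CpG. WT1, a zinc finger factor of serous tumors, had 12 counts in all, and PGR, the progesterone receptor, had 0, with 21 and 15 CpG in their windows. KRT20, a keratin of gut epithelium, also had 0 counts, and its window holds 2 CpG. CpG number thus did not order these 6 genes by level, since WT1 and PGR hold more CpG than PAX8.

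Over all protein-coding genes the windows differed by level class. RefSeq windows matched 15275 of 19789 protein-coding genes. The median window held 5 CpG (quartiles 2 and 14) for 2912 genes at 0 counts. It held 27 (quartiles 20 and 35) for 5655 genes between 10 and 100 CPM, and 28 for 1906 genes between 100 and 1000 CPM. The CpG ratio sets the number of CpG against the number that the C and G content of the window would give. A ratio over 0.6 was found for 23.9% of windows at 0 counts and for 87.6% and 89.9% in the latter classes, against 66.5% of all windows. Among genes at 0 counts with at least 70% unique sequence the share was 22.7%, so it was close to that of all genes at 0. The letters TATAAA, searched on both strands (the other strand reads TTTATA), occurred in 22.7% of windows at 0 counts, 3.82% of those between 10 and 100 CPM and 18.4% of the 38 windows at 1000 CPM or more, against 9.6% of all. A match is a run of letters anywhere in the window and not a bound site. The median share of G and C letters in these 3 classes was 51.3%, 66% and 63.5%, against 63% of all. Its part in the TATAAA shares was not tested.

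**Figure D1:**
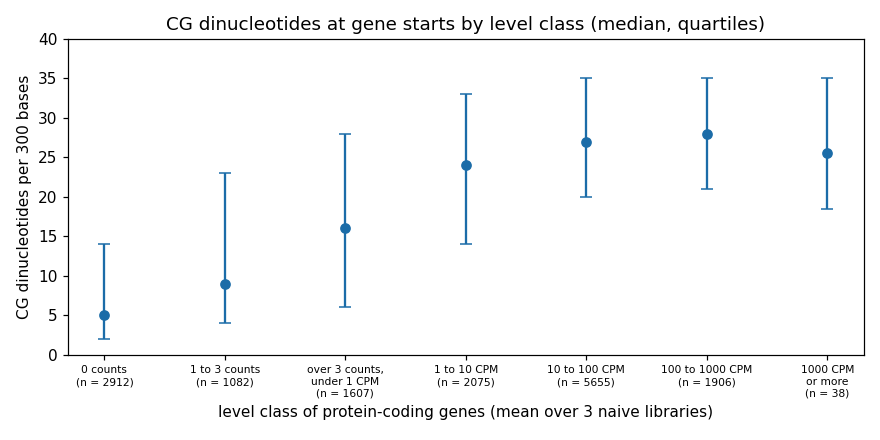
CpG dinucleotides in 300-base windows at RefSeq gene starts (vertical axis, count per window) by level class of the gene over the 3 naive libraries (horizontal axis, n windows in each); points are medians and bars run from the lower to the upper quartile. The median rises from 5 at 0 counts to 27 and 28 in the 10 to 100 and 100 to 1000 CPM classes.

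Nuclear protein-coding genes held 88.6% ± 1.3 of counts and the mitochondrial genome 10.2% ± 1.4. Noncoding RNA genes held 0.829% and pseudogenes 0.306%. The 100 genes of highest mean CPM held 21.4% ± 1.1 of counts and the 1000 highest held 51% ± 0.75. Counts were thus spread over many genes, and 60 protein-coding genes reached 1000 CPM.

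RACK1, a scaffold on the ribosome, had the highest CPM of the nuclear protein-coding genes, with 3214 ± 86 CPM. It was followed by ACTG1, a cytoplasmic actin (3049 ± 339 CPM), ENO1, the glycolytic enolase (2892 ± 151 CPM), and RPL8, a ribosomal protein (2794 ± 190 CPM). FTL, the ferritin light chain that stores iron, had 2625 ± 249 CPM, GAPDH had 2316 ± 98 CPM, and the chaperones HSPA8 and HSP90AA1 had 2132 ± 162 CPM and 2124 ± 188 CPM. KRT7, a keratin of simple epithelia, was the eleventh at 1966 ± 105 CPM. The translation factor EEF2 (1922 ± 24 CPM) and ATP5F1B, a subunit of ATP synthase (1915 ± 71 CPM), came next. The chaperones of the endoplasmic reticulum HSP90B1 and CALR were also among the 20 highest, with 1801 ± 77 CPM and 1562 ± 100 CPM. This ranking is by counted reads, so a gene that shares many reads with other genes can be missing from it.

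Per length the order was different. FTL led at 2990 ± 284 CPM per kilobase, ahead of TMSB10, an actin-binding peptide (1625 ± 348 CPM per kilobase), RPL8 (1294 ± 88 CPM per kilobase) and GSTP1 (1231 ± 79 CPM per kilobase). RACK1 stood at 537 ± 14 CPM per kilobase and was not among the 10 highest. Its annotated exons add up to 5.99 kilobases, those of FTL to 0.878, and this ranking was not repeated with other gene lengths. SLPI, a secreted inhibitor of proteases made by serous and mucosal epithelia, was the seventh at 799 ± 43 CPM per kilobase, although its 476 ± 26 CPM kept it out of the 20 highest by CPM. The heavy chain FTH1 stood at 761 ± 60 CPM per kilobase, below the light chain in all 3 libraries. FTL and FTH1 have 81.7% and 80.1% of their sequence to themselves, so part of their reads could not be counted.

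Cytosolic ribosomal protein genes held 4.12% ± 0.12 of counts over 84 genes, of which 81 were detected. Reads shared with their many pseudogenes are left out by the counting and are not in this share. Of the NADH dehydrogenase genes with an NDUF symbol, 45 of 48 were detected with a median of 65.6 CPM, and of the proteasome genes with a PSM symbol 44 of 48 with a median of 116 CPM. The shares were 93.8% and 91.7%, beside 58.4% of protein-coding genes. Membership was by symbol alone. Zinc finger genes with a ZNF symbol were detected in 400 of 509 cases (78.6%), with a median of 11.4 CPM.

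The gene with the most counts was mitochondrial. MT-RNR2, the large ribosomal RNA of the mitochondrion, had 26507, 27527 and 34523 CPM, and MT-RNR1, the small one, 1036, 1019 and 1181 CPM. Among the 13 mRNAs, MT-CO3 stood at 12850 ± 2157 CPM per kilobase, MT-ND4 at 11681 ± 1868 CPM per kilobase and MT-CO1 at 9769 ± 938 CPM per kilobase. These encode subunits of complexes of the respiratory chain. MT-ND6, the only mRNA read from the other strand, stood at 46.5 ± 15 CPM per kilobase, under every other mitochondrial mRNA. The share of mitochondrial mRNA was 5.97% in replicate 1, 7.57% in replicate 2 and 7.82% in replicate 3, so replicate 1 lay below the other wells. MT-CO1, MT-ATP6, MT-ND2 and MT-CO3 have 50% to 69% unique sequence, and their levels are uncertain for that reason.

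Noncoding RNAs held little of the counts. GAS5, a host gene of small nucleolar RNAs, led the noncoding genes that were ranked, with 448 ± 25 CPM. It was followed by MALAT1, an abundant nuclear RNA (301 ± 38 CPM), SNHG29 (288 ± 14 CPM), SNHG1 (262 ± 68 CPM), NORAD (247 ± 18 CPM, uncertain with 69.7% unique sequence), TUG1 (187 ± 9.6 CPM), ZFAS1 (176 ± 11 CPM) and SNHG14 (132 ± 1 CPM). SNHG1 varied most among them, with 203, 336 and 247 CPM. Its lowest and highest wells differed more than those of GAS5. NEAT1, the scaffold of paraspeckles, had 106 ± 8.5 CPM. The imprinted H19 and MEG3 and the HOX-cluster transcript HOTAIR had 0 counts.

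The label of a serous line was checked against the markers of that lineage. Factors of the Müllerian secretory cell were read at clear levels, but not all of them. SOX17, an endoderm and Müllerian factor, had 264, 268 and 244 CPM. MECOM had 207, 245 and 226 CPM and PAX8 had 130, 150 and 128 CPM. The 3 wells lay close together for each. EMX2 and MEIS1, homeobox factors of the reproductive tract, had 52.6 ± 6.8 CPM and 54.4 ± 4.3 CPM. Per length SOX17 led the factors with 110 ± 5.3 CPM per kilobase, and the ranges of MECOM (24.8 ± 2.1 CPM per kilobase) and PAX8 (18.4 ± 1.6 CPM per kilobase) did not overlap.

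Other lineage factors were low or near the floor. WT1 had 3, 2 and 7 counts in replicates 1 to 3, which is 0.253 ± 0.16 CPM. PGR had 0 counts in all 3. PAX2, a paired-box factor of the same duct, had 3 counts, all in replicate 2. ESR1, the estrogen receptor, was low but present at 4.77, 4.4 and 3.98 CPM. These genes have 99.4% to 100% unique sequence. In all 7 of 10 lineage factors were detected, and 58.4% of protein-coding genes were.

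All 10 surface and secreted serous markers were detected, beside 58.4% of protein-coding genes. SLPI had 505, 455 and 469 CPM, SPP1, the secreted phosphoprotein osteopontin, 274, 238 and 293 CPM, and CP, the copper carrier ceruloplasmin, 232, 226 and 287 CPM. MUC16, the mucin that carries the tumor marker CA-125, had 70.9, 104 and 90 CPM, and its highest well was replicate 2. WFDC2, which encodes the marker HE4, had 42.4 ± 5.2 CPM, and the protease KLK6 39.2 ± 3 CPM. FOLR1, the folate receptor, stood at 14 ± 2 CPM per kilobase, while MSLN, mesothelin, was lower at 3.16 ± 0.49 CPM per kilobase. KLK7 and KLK8 had 3.2 ± 0.55 CPM and 2 ± 0.49 CPM, the latter uncertain with 65.9% unique sequence. Because MUC16 is a very long mRNA, its 2.02 ± 0.38 CPM per kilobase stood far under the 30.7 ± 3.8 CPM per kilobase of WFDC2.

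The epithelial list was read in full, with 19 of 19 genes detected, beside 58.4% of protein-coding genes. Its median level was 21.8 CPM per kilobase, beside 6.68 CPM per kilobase over all detected protein-coding genes. KRT7 had 2022, 2030 and 1845 CPM. EPCAM, the epithelial adhesion molecule, had 594, 471 and 522 CPM and CDH1, E-cadherin, 185, 172 and 156 CPM. Per length KRT7 (480 ± 26 CPM per kilobase) led, and EPCAM (210 ± 25 CPM per kilobase), KRT18 (200 ± 21 CPM per kilobase) and KRT19 (176 ± 14 CPM per kilobase) followed with overlapping ranges between neighbors. The splicing regulator ESRP1, which sets epithelial exons, had 247 ± 19 CPM, and GRHL2, a factor of epithelial junction genes, 67.7 ± 8 CPM. Claudins were unequal, CLDN4 at 49.8 ± 8.2 CPM per kilobase, CLDN3 at 21.8 ± 3.4 CPM per kilobase and CLDN7 at 4.98 ± 0.81 CPM per kilobase. OCLN, occludin of the tight junction, was the lowest at 0.485 ± 0.049 CPM per kilobase.

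Mesenchymal genes were detected in 9 of 19 cases (47.4%, beside 58.4% of protein-coding genes). TAGLN, an actin-binding protein of smooth muscle, had 192, 156 and 180 CPM. VIM, vimentin, had 24.2, 20.7 and 22.6 CPM, SPARC, a matrix protein, 19.3 ± 2.9 CPM, and CDH2, N-cadherin, 11.4 ± 0.17 CPM. Of the 6 factors that repress epithelial genes, SNAI1 and TWIST1 were detected, at 12.2 ± 2.2 CPM and 4.55 ± 1.3 CPM. ZEB1 had 16 counts, ZEB2 1 and SNAI2 and TWIST2 0. FN1, fibronectin, had 0.53, 1.05 and 0.821 CPM. Of the fibrillar collagens COL1A1 was detected at 8.43, 5.66 and 7.14 CPM, while COL1A2 and COL3A1 had 3 and 0 counts. The matrix protease MMP2 had 3.42 ± 0.39 CPM and ACTA2, smooth muscle actin, 1.2 ± 0.17 CPM. Per length CDH1 (27.6 ± 2.4 CPM per kilobase) exceeded CDH2 (2.31 ± 0.035 CPM per kilobase) in each library, and KRT8 (92.2 ± 3.1 CPM per kilobase) exceeded VIM (4.36 ± 0.34 CPM per kilobase).

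**Figure D2:**
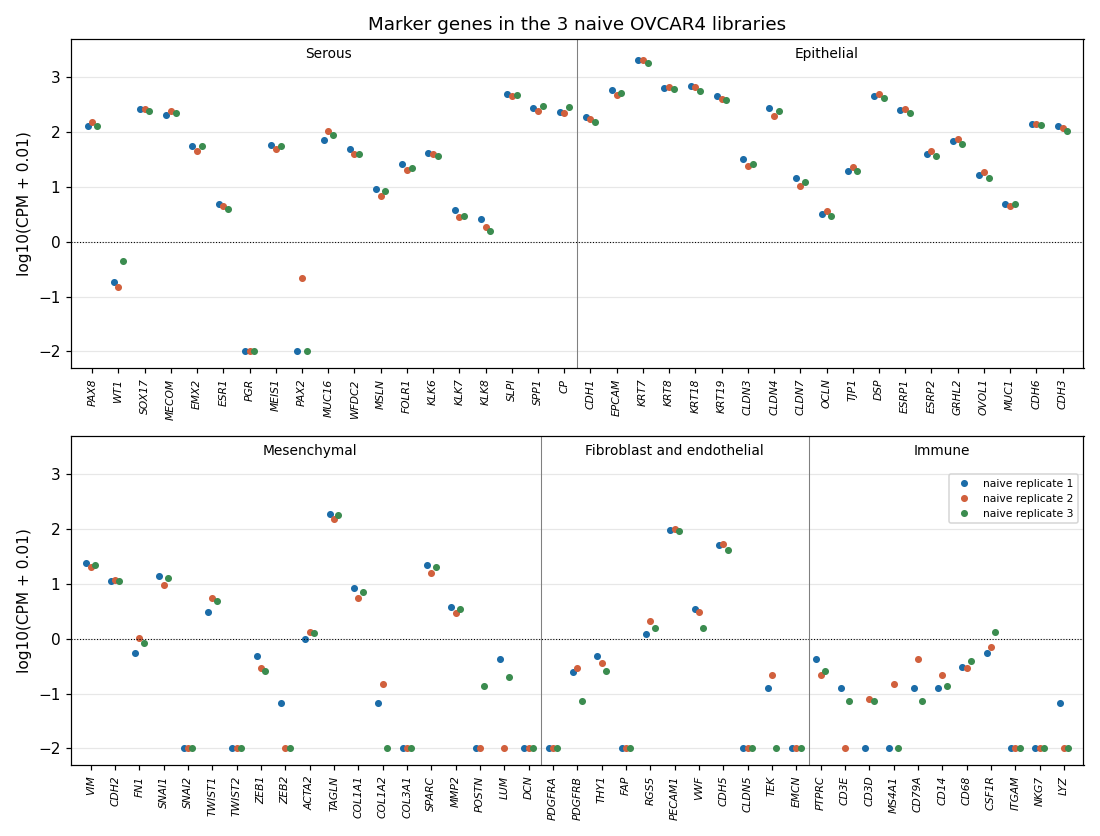
Marker genes of serous, epithelial, mesenchymal, fibroblast, endothelial and immune cells (horizontal axis) in the 3 naive libraries (points, 1 color per replicate), as log10 of CPM plus 0.01 (vertical axis), with a dotted line at 1 CPM. The epithelial genes drawn lie above the line, whereas WT1, PGR, PAX2 and the 11 immune genes drawn do not lie above it in every library.

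Leukocyte and fibroblast markers were mostly absent, and endothelial markers were mixed. Of the 12 leukocyte genes 1 was detected (8.33%, beside 58.4% of protein-coding genes). MS4A1, a B cell gene, had 2 counts and PTPRC, the common leukocyte antigen, 14. CD68 of macrophages had 15 counts and is uncertain with 25.7% unique sequence. Of the 5 fibroblast genes 1 was detected (20%), RGS5 of pericytes, with 1.24, 2.1 and 1.58 CPM. PDGFRA and FAP had 0 counts, PDGFRB 9 and THY1 17. Of the 6 endothelial genes 3 were detected (50%), a share near the 58.4% of protein-coding genes. PECAM1, a junction adhesion molecule, had 98.2, 100 and 92.8 CPM and CDH5, VE-cadherin, 51.9, 54.4 and 41.8 CPM. VWF, the third, had 2.71 ± 1 CPM, and CLDN5 and EMCN had 0 counts and TEK 5. PECAM1 and CDH5 have 99.9% and 100% unique sequence.

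Single genes also stood out from lists of other tissues. Of 8 mesothelial genes 1 was detected (12.5%) and of 8 ciliated cell genes 2 (25%), beside 58.4% of protein-coding genes. UPK3B, a uroplakin also made by mesothelium, had 78.7, 85.5 and 72.8 CPM, whereas the mesothelial calretinin gene CALB2 had 0 counts and KRT5 15. CAPS, a calcium-binding protein of ciliated cells, had 59.1, 53 and 56 CPM, and FOXJ1, the master factor of motile cilia, was low at 4.4 ± 0.37 CPM. The cilium genes PIFO and DNAH9 had 0 counts. Of 18 markers of gut, breast, urothelium, lung, thyroid, liver and prostate, 4 were detected, the highest being UPK2 at 2.02 ± 0.46 CPM per kilobase. Of 22 markers of neurons, muscle, red cells and germ cells 1 was detected, SNAP25 of the synapse, at 2.93 ± 0.5 CPM.

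Cancer-testis genes, which are normally silent outside the germ line, were detected in 2 of 17 cases (11.8%, beside 58.4% of protein-coding genes). These were MAGEC2 with 6.07, 5.8 and 5.75 CPM and PRAME with 2, 3.49 and 2.97 CPM. MAGEC1 had 28 counts and MAGEA4, MAGEA1 and SYCP1 had 0. MAGEA3, CTAG1B, CTAG2 and SSX2 have 0% to 56.9% unique sequence, so their low counts are uncertain.

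Of 58 receptor tyrosine kinase genes 29 were detected (50%, beside 58.4% of all protein-coding genes). These receptors bind growth factors outside the cell and signal by phosphorylation within it. EPHA2 and EPHB4, receptors for ephrins on neighboring cells, were the highest per length at 46.5 ± 8.8 CPM per kilobase and 40.7 ± 4.2 CPM per kilobase, with overlapping ranges. MET, the receptor of hepatocyte growth factor, followed at 36.4 ± 1.9 CPM per kilobase. RYK and PTK7, pseudokinases of Wnt signaling, stood at 28.2 ± 0.51 CPM per kilobase and 21.2 ± 0.31 CPM per kilobase. EPHA2 had 176, 235 and 168 CPM, highest in replicate 2, and MET had 267, 242 and 260 CPM.

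All 4 ERBB receptors were read. ERBB3, which pairs with the others, stood at 13.9 ± 0.34 CPM per kilobase, EGFR at 9.79 ± 1.4 CPM per kilobase and ERBB2 at 9.23 ± 0.8 CPM per kilobase, and the ranges of EGFR and ERBB2 overlapped. ERBB4 was far lower at 0.694 ± 0.13 CPM per kilobase. Of the fibroblast growth factor receptors, FGFR4 (11.9 ± 1.3 CPM per kilobase) and FGFR2 (11.8 ± 1.1 CPM per kilobase) could not be ordered, FGFR3 stood at 8.5 ± 0.5 CPM per kilobase and FGFR1 at 4.95 ± 0.26 CPM per kilobase. With the median transcript length in place of all exons FGFR1 became the highest of the 4. AXL, TYRO3 and MERTK, receptors for bridges to dying cells, had 38.4 ± 1.7 CPM, 34 ± 1.3 CPM and 8.95 ± 1.3 CPM. INSR and IGF1R, the insulin and insulin-like growth factor receptors, had 29 ± 2.9 CPM and 32.3 ± 2.2 CPM.

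None of the 8 receptors of the platelet-derived and vascular growth factor classes, which include KIT, CSF1R and FLT3, was detected. PDGFRA and FLT1 had 0 counts, FLT3 3, KIT 6 and PDGFRB 9. KDR, the main receptor of vascular growth factor, had 0.943, 1.47 and 1.14 CPM, around the detection limit. The neurotrophin receptors NTRK2 and NTRK3 had 1 count each, and RET had 6. Among Eph receptors 5 of 14 were detected, and EPHA5 and EPHB6 had 0 and 1 counts beside the high EPHA2 and EPHB4. TIE1, an endothelial receptor, was read at 9.03 ± 0.36 CPM.

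Of 48 nuclear receptors, factors that bind hormones or lipids and then DNA, 25 were detected (52.1%, beside 58.4% of protein-coding genes). NR2F6, an orphan receptor, led at 115 ± 13 CPM per kilobase, followed by NR1H2, an oxysterol receptor (56.6 ± 3 CPM per kilobase), and ESRRA, a receptor of energy metabolism (44.3 ± 1 CPM per kilobase). NR1D2, a repressor of the clock, stood at 20.5 ± 1.8 CPM per kilobase. Their ranges did not overlap with each other. The glucocorticoid receptor NR3C1 (10.3 ± 1.6 CPM per kilobase), the retinoic acid receptor RARG (10.3 ± 0.24 CPM per kilobase) and NR2F2 (11.2 ± 1.6 CPM per kilobase) overlapped.

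The estrogen and progesterone receptors were scarce. PGR had 0 counts and ESR2 2, and ESR1 was detected at 0.317 ± 0.029 CPM per kilobase. Against this NR3C1 had 82.9, 111 and 90 CPM and VDR, the vitamin D receptor, 45.3 ± 3.1 CPM. PPARD and PPARA, sensors of fatty acids, had 40.8 ± 2.4 CPM and 36.4 ± 3.3 CPM, while PPARG of fat cells had 1 count. HNF4A of liver and gut, NR5A1 of steroid-producing cells and NR1I2, a drug sensor, had 2, 0 and 0 counts.

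**Figure D3:**
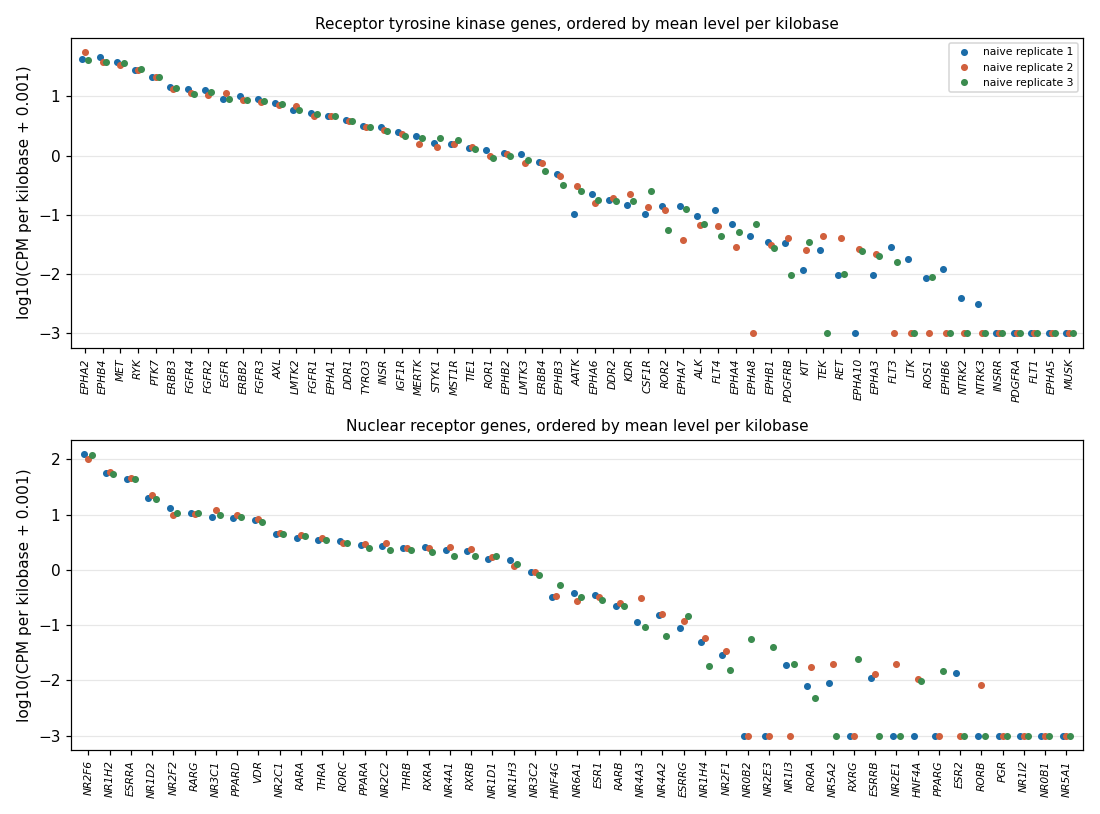
Receptor tyrosine kinase genes (top) and nuclear receptor genes (bottom), each ordered by mean level per kilobase; points are the 3 naive libraries and the vertical axis is log10 of CPM per kilobase plus 0.001. EPHA2 and EPHB4 lead the first panel and NR2F6 the second, and the genes toward the right of each panel fall to the floor, where wells scatter widely.

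Cytokine receptors were detected in 35 of 44 cases (79.5%, beside 58.4% of protein-coding genes). TNFRSF12A, the receptor of TWEAK, had 222, 296 and 243 CPM and led at 137 ± 21 CPM per kilobase. TGFBR2, the receptor of transforming growth factor beta, had 439, 513 and 455 CPM and stood at 99.7 ± 8.3 CPM per kilobase, apart from its partner TGFBR1 at 3.95 ± 0.13 CPM per kilobase. IL13RA1, a chain of an interleukin receptor, and LTBR, the lymphotoxin receptor, followed with 35.8 ± 2.1 CPM per kilobase and 21.9 ± 1.2 CPM per kilobase. The signal chain IL6ST stood at 16.7 ± 1.9 CPM per kilobase beside 1.42 ± 0.35 CPM per kilobase of IL6R. Both interferon gamma receptor genes and IFNAR1 were read, with 37.2 ± 3.3 CPM for IFNGR1, 9.22 ± 0.89 CPM for IFNGR2 and 96 ± 4.3 CPM for IFNAR1. The death receptors TNFRSF10B and TNFRSF10A had 79.8 ± 10 CPM and 19.6 ± 0.36 CPM, and the decoy receptor gene TNFRSF10D had 2 counts. AMHR2, the receptor of anti-Müllerian hormone, had 1 count.

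Of 20 surface antigens used as targets of antibodies or imaging, 18 were detected (90%, beside 58.4% of protein-coding genes). EPCAM stood at 210 ± 25 CPM per kilobase, above SLC34A2, a phosphate carrier, at 96.7 ± 4.6 CPM per kilobase, without overlap. L1CAM (25.5 ± 1.2 CPM per kilobase) and VTCN1, the checkpoint ligand B7-H4 (24.2 ± 2.4 CPM per kilobase), overlapped. SLC34A2 had 514, 475 and 473 CPM. CDH6, a cadherin of kidney and serous tumors, had 139, 141 and 135 CPM. NECTIN4 was low at 7.75 ± 1.9 CPM, and CLDN6 and CLDN18 had 0 counts.

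Repair of DNA was read almost in full. Of 127 repair genes 123 were detected (96.9%), beside 58.4% of all protein-coding genes. The median level was 5.72 CPM per kilobase over all 127, beside 6.68 CPM per kilobase over detected protein-coding genes. The 4 that were not detected were GTF2H4 of the helicase complex TFIIH, MUTYH, a glycosylase for oxidized bases, NEIL2, another glycosylase, and POLN, a polymerase. MUTYH had 0.471, 0.838 and 0.695 CPM, NEIL2 6 counts and POLN 5. GTF2H4 had 0 counts but only 27% unique sequence, so its level could not be read.

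All 29 homologous recombination genes were detected. BRCA1 had 22, 24.8 and 24.8 CPM and BRCA2 13.3, 16.6 and 14.9 CPM. Their partner PALB2 had 49.4, 60.5 and 56 CPM. Per length the single-strand binding subunit RPA2 (29.7 ± 1.4 CPM per kilobase), the end resection factor RBBP8 (27.4 ± 3.6 CPM per kilobase) and NBN of the break sensor (26.8 ± 1.1 CPM per kilobase) led with overlapping ranges. With the median transcript length NBN was the highest. BRCA2 stood at 1.22 ± 0.14 CPM per kilobase and ATM, the kinase that responds to breaks, at 1.44 ± 0.1 CPM per kilobase, both under the median of detected protein-coding genes.

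All 17 Fanconi genes, which undo crosslinks such as those made by Pt, were detected as well. CENPX (36.3 ± 3.8 CPM per kilobase) and the ubiquitin-conjugating enzyme UBE2T (35.3 ± 3.7 CPM per kilobase) led with overlapping ranges, and FANCI (12.9 ± 0.65 CPM per kilobase) was the highest by median transcript length. FANCD2 had 45.6 ± 2.1 CPM and FANCA 14.8 ± 1.1 CPM. FAN1, a nuclease for crosslinks, was the lowest at 0.346 ± 0.063 CPM per kilobase. CENPS had 3.4 ± 1.1 CPM, uncertain with 40% unique sequence.

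In nucleotide excision repair, which removes bulky lesions, 20 of 21 genes were detected. The damage sensors CETN2 and RAD23B stood at 52.4 ± 6 CPM per kilobase and 43.4 ± 2.5 CPM per kilobase, and DDB1 was the highest by median transcript length. XPC, their partner, stood at 10.1 ± 1.1 CPM per kilobase. The incision nuclease ERCC1 had 60.4, 52.3 and 50.2 CPM and its partner ERCC4 33, 39.6 and 33.7 CPM. ERCC5, the other nuclease, had 1.82 ± 0.56 CPM and GTF2H2 1.75 ± 0.21 CPM, both uncertain with 38% and 35% unique sequence.

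All 8 mismatch repair genes were detected. PCNA, the sliding clamp also used in replication, stood at 127 ± 12 CPM per kilobase. MSH6, a subunit that recognizes mismatches, stood at 13.1 ± 1.1 CPM per kilobase. PMS2 had 19.5 ± 2.1 CPM, with 77% unique sequence.

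Base excision repair had 20 of 22 genes detected, led per length by APEX1, the enzyme that cuts at missing bases (79.2 ± 3.6 CPM per kilobase). PARP1, the target of PARP inhibitors, had 179, 140 and 149 CPM, and PARP2 24.3 ± 2.5 CPM. By median transcript length PARP1 was the highest. The end joining genes XRCC6 and XRCC5, the Ku pair that caps broken ends, were the highest repair genes with PCNA, at 129 ± 3.7 CPM per kilobase and 90 ± 2.5 CPM per kilobase, with XRCC5 above XRCC6 by median transcript length. XRCC5 had 481, 487 and 507 CPM. PRKDC, the kinase they recruit, had 252 ± 8 CPM, and TP53BP1, which protects ends from resection, 84 ± 3.9 CPM. POLQ, of the alternative joining pathway, had 26.3 ± 3 CPM.

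Of the polymerases that copy past lesions, POLH had 39.9 ± 0.88 CPM, REV3L 66 ± 8.4 CPM and REV1 39.3 ± 4.7 CPM. The ubiquitin enzyme UBE2B, which acts on PCNA to bring them in, led the group at 34.1 ± 4.6 CPM per kilobase. MGMT, which removes alkyl groups from guanine and is silenced in many tumors, was present at 43.9, 37.6 and 40 CPM. All 18 checkpoint genes were detected, beside 58.4% of protein-coding genes. H2AX, the histone marked at breaks, led with 70.3 ± 1.3 CPM per kilobase, and CHEK1 (16.1 ± 0.6 CPM per kilobase) exceeded CHEK2 (6.81 ± 0.095 CPM per kilobase) and ATR (8.44 ± 0.52 CPM per kilobase) exceeded the 1.44 ± 0.1 CPM per kilobase of ATM. MDC1, an adaptor at breaks, was the lowest at 0.293 ± 0.066 CPM per kilobase.

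**Figure D4:**
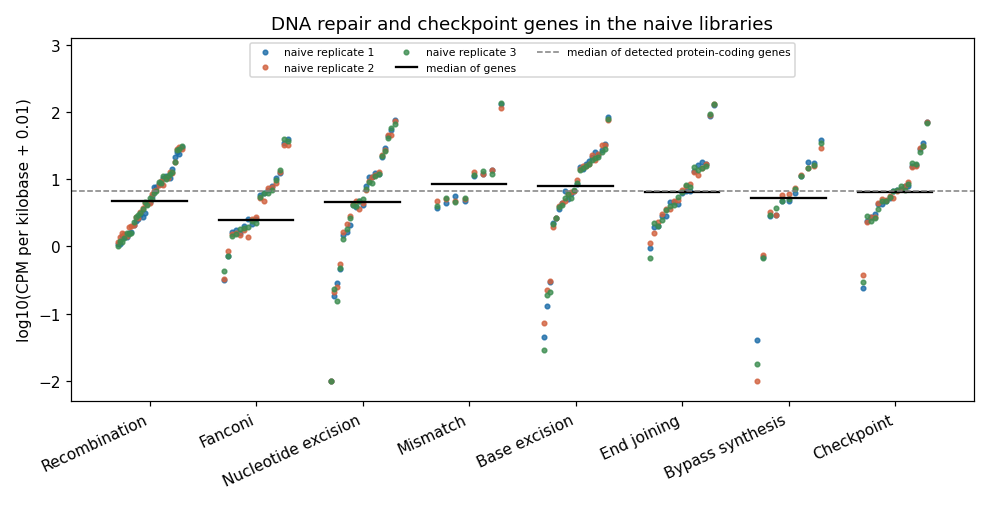
DNA repair and checkpoint genes by pathway (horizontal axis; direct reversal, with 3 genes, is not drawn) in the 3 naive libraries, as log10 of CPM per kilobase plus 0.01 (vertical axis); black lines are pathway medians, and the dashed line is the median of detected protein-coding genes, 6.68 CPM per kilobase. PCNA, XRCC6 and XRCC5 lie highest, and GTF2H4 lies at 0.

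Of 32 driver genes of serous cancer 28 were detected (87.5%, beside 58.4% of protein-coding genes). CCNE1, cyclin E, had 138, 129 and 123 CPM and its chromosomal neighbor URI1 279, 244 and 270 CPM, at 51 ± 3.1 CPM per kilobase and 48.7 ± 3.4 CPM per kilobase. CCND1, cyclin D, stood at 57.9 ± 7.3 CPM per kilobase, and the ranges of CCND1 and CCNE1 overlapped. MYC had 118, 170 and 117 CPM, highest in replicate 2. The kinase inhibitor gene CDKN2A was read at 176 ± 23 CPM and CDKN1A, an inhibitor of cyclin-dependent kinases, at 34.6 ± 1.1 CPM. The kinase genes AKT2 and AKT1 had 200 ± 9.7 CPM and 186 ± 12 CPM. CCND2 had 0 counts, and TERT, telomerase, 0.632 ± 0.28 CPM.

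Of 28 genes of arginine methylation, its methyl supply and the KEAP1 and NRF2 system, which the study is about, 27 were detected (96.4%, beside 58.4%). PRMT5, which dimethylates arginines symmetrically, had 124, 123 and 123 CPM, and the highest well was 1.01 times the lowest. Its partner WDR77 had 39.5 ± 3.9 CPM and the substrate adaptors CLNS1A, RIOK1 and COPRS 106 ± 9.6 CPM, 63.6 ± 7.8 CPM and 43.3 ± 5.4 CPM. PRMT1, the main asymmetric enzyme, stood at 60.1 ± 3.3 CPM per kilobase above PRMT5 at 35.6 ± 0.21 CPM per kilobase and CARM1 at 20.6 ± 0.42 CPM per kilobase. PRMT8, a brain enzyme, had 0 counts, and MTAP, whose loss raises dependence on PRMT5, had 49.3 ± 4.3 CPM.

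KEAP1, which marks the factor NRF2 for decay, had 110, 93.9 and 89.7 CPM. NFE2L2, the gene of NRF2, had 151, 250 and 181 CPM and so differed between wells more than KEAP1 did. The NRF2 targets TXNRD1 and NQO1 had 526 ± 24 CPM and 175 ± 6.2 CPM, and GCLC and GCLM, the subunits that make the precursor of glutathione, 68.3 ± 1.9 CPM and 67.3 ± 2.4 CPM. AHCY, which clears the by-product of methylation, led the methylation genes at 135 ± 6.3 CPM per kilobase.

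Of 22 genes of Pt transport and thiol binding 11 were detected (50%, beside 58.4% of protein-coding genes). GSTP1 had 2522, 2239 and 2294 CPM. SLC31A1, the copper carrier linked to Pt entry, had 61.4, 64.2 and 58.8 CPM, and the copper pumps ATP7A and ATP7B 18.3 ± 0.61 CPM and 8.82 ± 0.38 CPM. LRRC8A and LRRC8D, subunits of a volume-regulated channel, had 67.9 ± 2.3 CPM and 102 ± 11 CPM. ABCB1, the drug pump, had 0 counts, ABCG2 17 and ABCC2 23, while ABCC1 had 23.3 ± 0.87 CPM. Of the metallothioneins MT2A stood at 69.3 ± 11 CPM per kilobase and MT1G had 0 counts. The organic cation carriers SLC22A2 and SLC22A3 had 18 and 15 counts.

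HOX genes record position along the body axis, and 1 cluster of 4 was prominent. Over all clusters 16 of 39 HOX genes were detected (41%, beside 58.4% of protein-coding genes). Of the HOXB genes 9 of 10 were detected (90%). HOXB9 had 89, 91.2 and 95.2 CPM and HOXB2 54.2, 43.5 and 51 CPM. Per length the order was HOXB9 (35.6 ± 1.2 CPM per kilobase), HOXB2 (21.2 ± 2.4 CPM per kilobase), HOXB7 (14.7 ± 2.2 CPM per kilobase) and HOXB8 (11.3 ± 1.7 CPM per kilobase), without overlap, and HOXB2 was highest by median transcript length. HOXB1 had 0 counts.

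The other clusters were low in level. HOXA genes were detected in 6 of 11 cases (54.5%), a share near the 58.4% of protein-coding genes. No HOXA gene had a mean over 2.19 CPM. The highest per length was HOXA5 at 1.28 ± 0.45 CPM per kilobase, and HOXA10 and HOXA11 of the uterus had 2.02 ± 0.33 CPM and 1.15 ± 0.1 CPM. HOXA9, the paralog linked to the fallopian tube, had 0.679 ± 0.23 CPM. Of 9 HOXC genes 1 was detected (11.1%), HOXC6 at 2.32 ± 0.43 CPM. No HOXD gene was detected, and each of the 9 had at most 3 counts in all. HOXD3 and HOXD4 have 38% and 24% unique sequence and are uncertain. Of the 10 HOX windows with RefSeq sequence whose genes had at most 3 counts, 8 had a CpG ratio over 0.6, as had all 4 of those detected. These 4 were HOXA genes at 1.15 to 2.06 CPM. None of the detected HOXB genes had a window, so the prominent cluster was not compared.

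**Figure D5:**
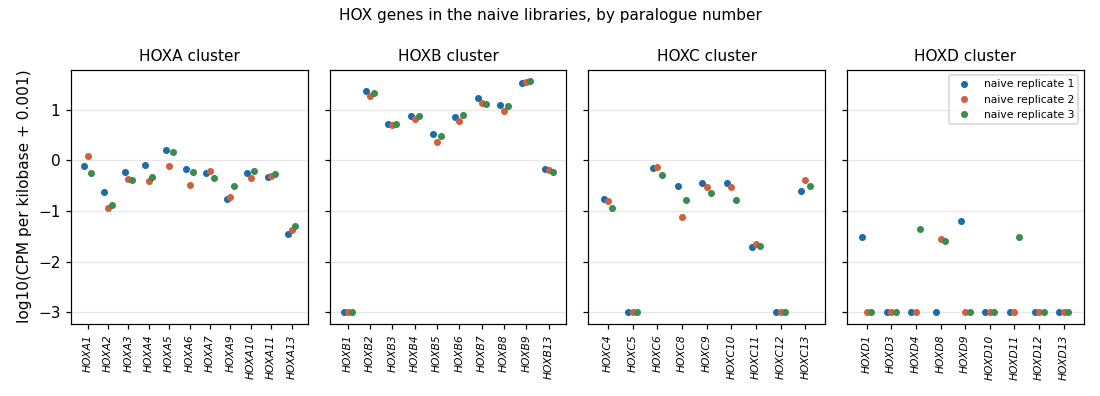
HOX genes of the 4 clusters by paralogue number (horizontal axes) in the 3 naive libraries, as log10 of CPM per kilobase plus 0.001 (vertical axis). The HOXB genes from HOXB2 to HOXB9 lie above the genes of every other cluster, and the HOXD genes lie at or near the floor.

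In families of enzymes that do the same step, 1 member often stood well above the others. ENO1 stood at 548 ± 29 CPM per kilobase against 1.5 ± 0.19 CPM per kilobase for ENO2 of neurons. PKM stood at 105 ± 12 CPM per kilobase, while PKLR of liver had 0 counts. The glucose carrier SLC2A1 had 176, 177 and 168 CPM, and SLC2A2, SLC2A3 and SLC2A4 had 0, 13 and 28 counts. LDHB (37.5 ± 4.5 CPM per kilobase) exceeded LDHA (6.22 ± 0.25 CPM per kilobase) in each library, and LDHA had 39.1, 36.9 and 39.9 CPM. HK1 (27.9 ± 2.1 CPM per kilobase) exceeded HK2 (11.7 ± 1.1 CPM per kilobase). ALDOC stood at 8.72 ± 1.5 CPM per kilobase above ALDOA at 2.19 ± 0.79 CPM per kilobase, but ALDOA has 62% unique sequence. The cytoplasmic actins ACTG1 (1019 ± 113 CPM per kilobase) and ACTB (287 ± 43 CPM per kilobase) were high, and the skeletal actin gene ACTA1 had 0 counts.

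Some gene families of specialized cells lay at the floor. Of 388 olfactory receptor genes, which are used in the nose, 360 had 0 counts (92.8%, beside 21.6% of protein-coding genes) and none was detected. Of 94 keratin-associated protein genes of hair 92 were at 0, and all 13 interferon alpha genes were at 0. Among the 4291 protein-coding genes at 0 counts, 1220 had under 70% unique sequence, so a zero there does not show silence. Among the 11594 detected ones 274 had so little.

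The 3 wells were close. The biological coefficient of variation, the spread between wells beyond counting error, was 8.18% over genes of at least 10 CPM on average, and the median gene's highest well was 1.15 times its lowest. Of 9316 genes compared at that level, 150 differed over 1.5-fold between wells (1.61%) and 6 over 2-fold. Replicate 2 was the highest in 98 of the 150.

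The largest difference was in ATF3, a stress-induced factor, with 10.7, 50.8 and 14.3 CPM. HBEGF, a ligand of EGFR, had 21.3, 45.6 and 17.5 CPM, IL1A, a cytokine, 9.37, 21.3 and 11.2 CPM, and TUFT1 61.2, 123 and 55.6 CPM. JUN, an immediate-early factor, had 168, 331 and 182 CPM and EDN1, endothelin, 155, 306 and 157 CPM. RAB30, a small GTPase, had 8.31, 16.7 and 10.4 CPM. Replicate 2 was the highest well for each of these 7 genes. TNFSF9, a ligand of the TNF family, had 41, 19.3 and 38.8 CPM, the secretoglobin SCGB2A1 14.9, 9.57 and 18.6 CPM and the cochaperone DNAJC25 11.1, 6.98 and 13.8 CPM. Replicate 2 was the lowest well for these 3, which complete the 10 most variable genes. Without replicate 2 the mean of ATF3 was 0.495 of its mean over all wells. Of the 20 immediate-early genes 18 were detected (90%, beside 58.4% of protein-coding genes). JUND (157 ± 24 CPM per kilobase) and DUSP1 (98.1 ± 19 CPM per kilobase) were the highest per length. FOS and EGR1 of the same list had 90.2, 80 and 95.4 CPM and 148, 160 and 147 CPM. FOS was lowest in replicate 2, and EGR1 differed by 1.09-fold. Among 427 detected nuclear genes of the lists, ATF3 was the only one whose mean moved by over 1.5-fold when replicate 2 was left out.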

How the data were processed

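Cells had been seeded in wells in triplicate and RNA libraries were made with a directional kit, per the study's methods. The authors checked the reads with FastQC, aligned them with STAR and deposited whole-number counts per gene, not normalized. DESeq2, named in the submitters' processing notes, served their own comparisons and was not used here for a test. Versions, genome build, annotation and strand column behind these counts are not given in the sources used. Reads with several alignments, and reads lying in exons shared by 2 genes, are dropped when STAR counts genes. Of 189 protein-coding genes with at least 80% of their exons under another gene on the same strand, 9 were detected and 139 had 0 counts. Of 35 covered that far on the opposite strand only, 12 were detected.

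The 3 naive columns of 9 were used, each mapped to its sample by its label. Library totals of 14320929 to 16967143 counts set the precision, and the floor was 3 counts over the group. Counts were divided by the library total (CPM) and by the union of exons in GENCODE 29, matched by stable ID for 58312 of 61487 genes. Genes without a match held 0.0528% of the naive counts. Symbols came from a table of gene names for 61369 genes. Uniqueness is the share of a gene's 50-base stretches in GENCODE 29 transcripts found in no other gene. It does not see genes annotated later. Spread was estimated with edgeR 4.0.16 in R 4.3.3 by a fit of the mean alone. That estimate was also run on counts simulated with the same spread for all genes. Spreads that differ between genes were not simulated, and no support is drawn from that run. Pairs of libraries differed beyond counting noise (chi-square per degree of freedom 8.37 to 11.58), so none was a copy. RefSeq windows (GRCh38.p14) were read with Python 3.11.15. Order within a family was called where the ranges of the 3 libraries did not overlap. That rule covers the spread between wells and not the choice of gene length. Other lengths were tried for the highest member of each family only, so orders below it rest on the union of exons.

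No group was compared and no gene was tested. There were 32 gene lists with 656 genes, and 1 gene was not in the table. Some list members count in the totals but are not reported here. Beside their members, genes were named where they were the 20 highest nuclear protein-coding genes by CPM, the 10 highest per kilobase, the 8 highest noncoding genes or the 10 most variable between wells among genes of at least 10 CPM. Genes of the Y chromosome and a noncoding gene of the X chromosome were left out of these rankings. The lists and rules were chosen with earlier results of these data known. Alternatives were other scalings, other detection limits, other gene lengths and each replicate left out. The Pt-resistant libraries and the study's chromatin data were not analysed here.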

Additional observations from a re-analysis of the deposited data

How the results depend on the processing

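The number of detected genes, 12571 at 1 CPM, was 12548 with TMM or DESeq2 size factors, 12681 with mitochondrially encoded genes left out of the total, 13562 at a limit of 0.5 CPM, 10317 at 5 CPM, and 12671 to 12747 with each replicate left out in turn. Detected list members, 442 in all, numbered 385 to 459 over these settings. Genes with 0 counts, 36150, became 42419 when up to 3 counts over the group were allowed, and 37507 to 38038 with 1 replicate left out. The coefficient of variation of 8.18% was 8.45% with no minimum level, 6.72% without replicate 2 and 9.42% without replicate 3. Leaving mitochondrial genes out of the total raised nuclear levels by 1.11-fold at the median, and TMM over all 9 libraries multiplied levels by 0.987. Of 38 families, 26 kept the same highest member per length with the median transcript length, 32 with the longest transcript and 35, 35 and 38 without replicates 1, 2 and 3. Families that changed with the median length included those led by FGFR4, KDR, AXL, RPA2, CENPX, APEX1, XRCC6, ALKBH3, HOXA5, HOXB9 and HOXD9. No paired analysis was possible because the levels come from 1 group and from no test. Depth limits the genes under 1 CPM, where single counts set the value.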
